A study of Schizosaccharomyces pombe with 36 samples.

Results

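The genes near the ends of chromosome I of the fission yeast Schizosaccharomyces pombe were followed across 12 conditions. They are the 70 genes, of 5129 in the count table, whose systematic name begins with SPAC212., SPAC977., SPAC11D3., SPAC750., SPAC1039. or SPAC869.; 74 rows carry these prefixes, and SPAC1039.09, SPAC869.07c, SPAC869.10c and SPAC869.11 were left out by the rule. In the gene order of RefSeq assembly ASM294v3, 43 of them lie at the left end (SPAC212 nearest the telomere, then SPAC977 and SPAC11D3) and 26 at the right end (SPAC750 nearest the telomere, then SPAC869 and SPAC1039), and 1, SPAC11D3.20, had no match there. The build used by the authors is not given in the sources used here, so that assembly served for names, products, gene order, lengths and sequence, and no coordinates are printed.

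The last stretch of a fission yeast chromosome before the telomere, the subtelomere, is largely packed into heterochromatin, in which histone H3 carries lysine methylation, is poor in acetylation and keeps genes silent. Its genes belong often to families with near-identical copies at other chromosome ends, and many encode membrane transporters and enzymes of nutrient use or detoxification. Further inward the heterochromatin gives way to ordinary chromatin, and genes there can be transcribed strongly in growing cells. SAGA and NuA4, the co-activators manipulated here, acetylate histones at promoters: Tra1 is a large pseudokinase subunit of SAGA, Tra2 is its paralogue in NuA4, Spt20 is a SAGA core subunit, and Tti2 is part of a co-chaperone that helps such large proteins mature.

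RNA-seq was run on polyadenylated RNA from 36 mid-log liquid cultures in rich medium (YES), 3 per condition. In the inducible strains, all carrying cre-ER (a Cre recombinase that β-estradiol activates), β-estradiol cultures were compared with DMSO cultures of the same strain: cre-ER lox-tti2-lox (tti2-CKO) for 18 h, cre-ER lox-tra2-lox (tra2-CKO) for 21 h, and cre-ER alone (creER), with no floxed gene, for 21 h. The constitutive mutants were compared with a wild-type strain (WT) without cre-ER, all grown in YES without either compound: tra1Δ lacks tra1, tra1-Sptra2 and tra1-Sctra1 are hybrid tra1 alleles in which a short segment comes from S. pombe Tra2 or from Tra1 of budding yeast, spt20Δ lacks spt20, and spt20-HITΔ carries a PK-tagged Spt20 without its HIT region. Each condition rests on 1 strain, the cultures are described by the study as independent, and p-values measure the spread between such cultures.

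Libraries held 4811942 to 9724398 counts, and no replicates were identical (Pearson r between replicates of a condition 0.976 to 0.995). The targeted genes behaved as the labels say: with β-estradiol, tti2 averaged 0.539 CPM (counts scaled to the library total) in tti2-CKO, against 11.4 CPM with DMSO, and tra2 averaged 7.58 CPM in tra2-CKO, against 111 CPM with DMSO. In the constitutive mutants, tra1 averaged 0.463 CPM in tra1Δ, against 98.7 CPM in WT, and spt20 averaged 4.18 CPM in spt20Δ, against 41.5 CPM in WT. In spt20-HITΔ, spt20 averaged 27.9 CPM, and neither it nor the hybrid alleles can be checked by a gene count. Replicate 1 of creER DMSO and of tra2-CKO DMSO, and replicate 3 of WT, stood apart from the other cultures of their conditions in the SPAC1039 genes, and the calls in that region that change without one of them are named with those genes.

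Near-identical copies limit what can be counted here. Of the 69 matched genes, 29 (42.0%) shared at least 10% of their 50-base windows with another place in the reference, against 139 genes (2.72%) over the whole table. Among the 29, 27 shared more than 50% and 9 shared all of them. Reads were 50 bases long and reads with an ambiguous position were dropped by the authors' quality limit, so a copy with no unique window can show 0 counts while being transcribed. Windows are shown for both pairs of copies whose counts carry results below. The aldo/keto reductase genes SPAC750.01 (right end) and SPAC977.14c (left end) were identical at 93.7% of 978 aligned coding bases, with 343 of 929 windows free of mismatches and a longest shared run of 273 bases. In the sequences, read 5′ to 3′ on the coding strand of ASM294v3, capitals mark bases that differ between the aligned copies, and the first window of the pair has none.
SPAC750.01 and SPAC977.14c, shared window: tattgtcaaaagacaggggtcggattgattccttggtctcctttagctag
SPAC750.01, differing window: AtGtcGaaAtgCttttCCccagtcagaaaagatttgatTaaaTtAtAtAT
SPAC977.14c, differing window: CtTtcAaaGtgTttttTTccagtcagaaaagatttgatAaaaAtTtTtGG

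The L-asparaginase gene SPAC977.12 and its copy SPBPB8B6.05c on chromosome II were closer, identical at 98.8% of 1071 aligned coding bases, with 877 of 1022 windows free of mismatches and a shared run of 926 bases. Their most different window held 6 mismatches, against 13 in the aldo/keto reductase pair, so fewer of their reads can be told apart.
SPAC977.12 and SPBPB8B6.05c, shared window: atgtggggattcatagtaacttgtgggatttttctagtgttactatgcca
SPAC977.12, differing window: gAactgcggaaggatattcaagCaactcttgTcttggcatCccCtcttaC
SPBPB8B6.05c, differing window: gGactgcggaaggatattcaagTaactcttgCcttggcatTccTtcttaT

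Transcript levels fell steeply toward the telomeres. The median member averaged 6.20 CPM over the 36 libraries, against 79.7 CPM for all genes, and 28 of 70 members (40.0%) averaged under 1 CPM, against 177 of 5129 genes (3.45%). By region, the median was 86.2 CPM in SPAC1039, 36.9 CPM in SPAC11D3, 0.788 CPM in SPAC869, 0.565 CPM in SPAC977, 0.126 CPM in SPAC212 and 0.00201 CPM in SPAC750. All 10 genes of SPAC1039 and 16 of 19 in SPAC11D3, the innermost region of each end, averaged at least 10 CPM, against 5 of 17 in SPAC977, 2 of 8 in SPAC869 and 0 of 8 in SPAC212 and in SPAC750. The exceptions in SPAC977 include SPAC977.14c and nhe1, and one of those in SPAC869 is yhb1, all described below. All 29 genes with shared windows lie in SPAC212, SPAC750 and SPAC977. For the low ones among them, little transcript and reads dropped as ambiguous cannot be told apart, while some shared genes, such as SPAC977.12 and SPAC977.14c, were well counted. Scaled by gene length, SPAC1039.02, annotated as a phosphoprotein phosphatase, was the highest at 621 CPM per kb, and SPAC1039.01, an amino acid permease gene, followed at 132 CPM per kb.

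At the other extreme, 7 members had 0 counts in every library: SPAC212.12, SPAC750.02c, SPAC750.04c (ftm3), SPAC750.07c, SPAC750.08c, SPAC977.08 (ayr2) and SPAC977.09c (plb4). All 7 share all of their windows with other places, so their zeros do not show an absence of transcript. In all, 15 members never exceeded 3 counts in a library. Of the 42 members that averaged at least 1 CPM, 14 had their highest mean in tti2-CKO with β-estradiol, 9 in spt20Δ and 6 in WT, and 18 had their lowest mean in tra2-CKO with β-estradiol. The same tally was not made over all genes, so it does not show that these conditions stand out for the members.

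Differences were tested with edgeR's quasi-likelihood test and Benjamini-Hochberg adjustment over all genes tested, and a gene was called where the adjusted p did not exceed 0.01 and the groups differed by 1.5-fold or more. Of the 70 members, 45 had enough counts to be tested in at least 1 of the 8 comparisons with DMSO or WT, 38 in all 8, and 25 in none. Among the tested, 31 were called at least 1 time: 18 in 1 comparison, 7 in 2 or 3 and 6 in 4 or more. Those made 62 calls, and the shares of all genes called are given below by comparison. In all 62 the 3 libraries of the groups did not overlap. That is no separate support, since the same values gave the calls, and it was not counted for all genes. A member that passed the filter on low counts only through the condition in which it was high, such as the SPAC869 genes described below, had to differ, and the counts of calls are no support on their own.

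With β-estradiol, tti2-CKO showed the most members called: 11 higher and 8 lower of 42 tested, where 5.65% of all genes tested were called higher and 7.13% lower. The median member was at 0.00 on the log2 scale, against −0.01 for all genes, with both rises and falls in SPAC11D3 (3 and 2 of 18 tested) and in SPAC869 (2 and 2 of 5). In SPAC1039, 6 of 10 genes rose, whereas in SPAC977 4 of 7 tested fell. In tra2-CKO, 4 members were called higher and 8 lower of 39 tested, against 7.71% and 2.37% of all genes, and the median member was at −0.32, against 0.01 for all genes. In creER, where no gene is removed, 1 member was called higher and 1 lower of 39 (all genes 0.999% and 0.143%). Same-numbered creER cultures deviated together, and with replicate number as a block 8 members were called, in a fit whose share over all genes is not given here. Without the block, the count was 0 on leaving out DMSO replicate 2, DMSO replicate 3, β-estradiol replicate 2 or β-estradiol replicate 3, and 1 without β-estradiol replicate 1.

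The comparisons with WT all used the same 3 WT libraries, and their values are therefore given side by side. In tra1Δ, 1 member was called higher and 5 lower of 39 tested, where 0.816% of all genes were called higher and 1.65% lower. In tra1-Sptra2, 3 were called higher and 7 lower of 41 (all genes 1.1% and 2.61%). In spt20Δ, 4 were called higher and 7 lower of 39 (all genes 7.09% and 5.73%). With the replicate block 17 were called in all, in a fit whose share over all genes is not given here. The pairing behind that block is weak, since spt20Δ replicate 1 correlated more with another WT replicate than with WT replicate 1 (r 0.124). The share of members called lay above that of all genes in both directions in these 3 mutants, in tti2-CKO and tra2-CKO and also in creER, with no test made of the difference. In creER it rested on 1 member each way, and in tra1Δ on 1 member upward. In spt20Δ the 4 members called higher, including pcm2 (SPAC869.08), which was too low to test against DMSO or WT in the other strains, made a share near that of all genes. The counts rested in part on 1 library each, with 3 members called in tra1Δ without its replicate 1 or its replicate 3, and 7 in spt20Δ without WT replicate 1 or spt20Δ replicate 2. The median member was at −0.22 in tra1Δ, at −0.13 in tra1-Sptra2 and at −0.01 in spt20Δ, against 0.00, 0.00 and 0.02 for all genes.

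In each of the remaining mutants 1 member was called. In tra1-Sctra1, 0 members were called higher and 1 lower of 39, where 0.204% of all genes were called higher and 0.0817% lower. An unadjusted p under 0.05 was reached by 12 of the 39 members, against 698 of 4896 genes, and DESeq2 called 3 members. In spt20-HITΔ, 0 were called higher and 1 lower of 38 (all genes 0.0409% and 0.327%). Of the 38, 13 had an unadjusted p under 0.05, against 1076 of 4887 genes, and DESeq2 called 6. The only member called in either was SPAC750.01, whose calls depended on single libraries, as given with that gene. The median member was nevertheless at −0.23 in spt20-HITΔ, with 30 of 38 below 0, against 0.01 for all genes. In tra1Δ 25 of 39 were below 0. In tra1-Sctra1 it was at −0.00.

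**Figure D1:**
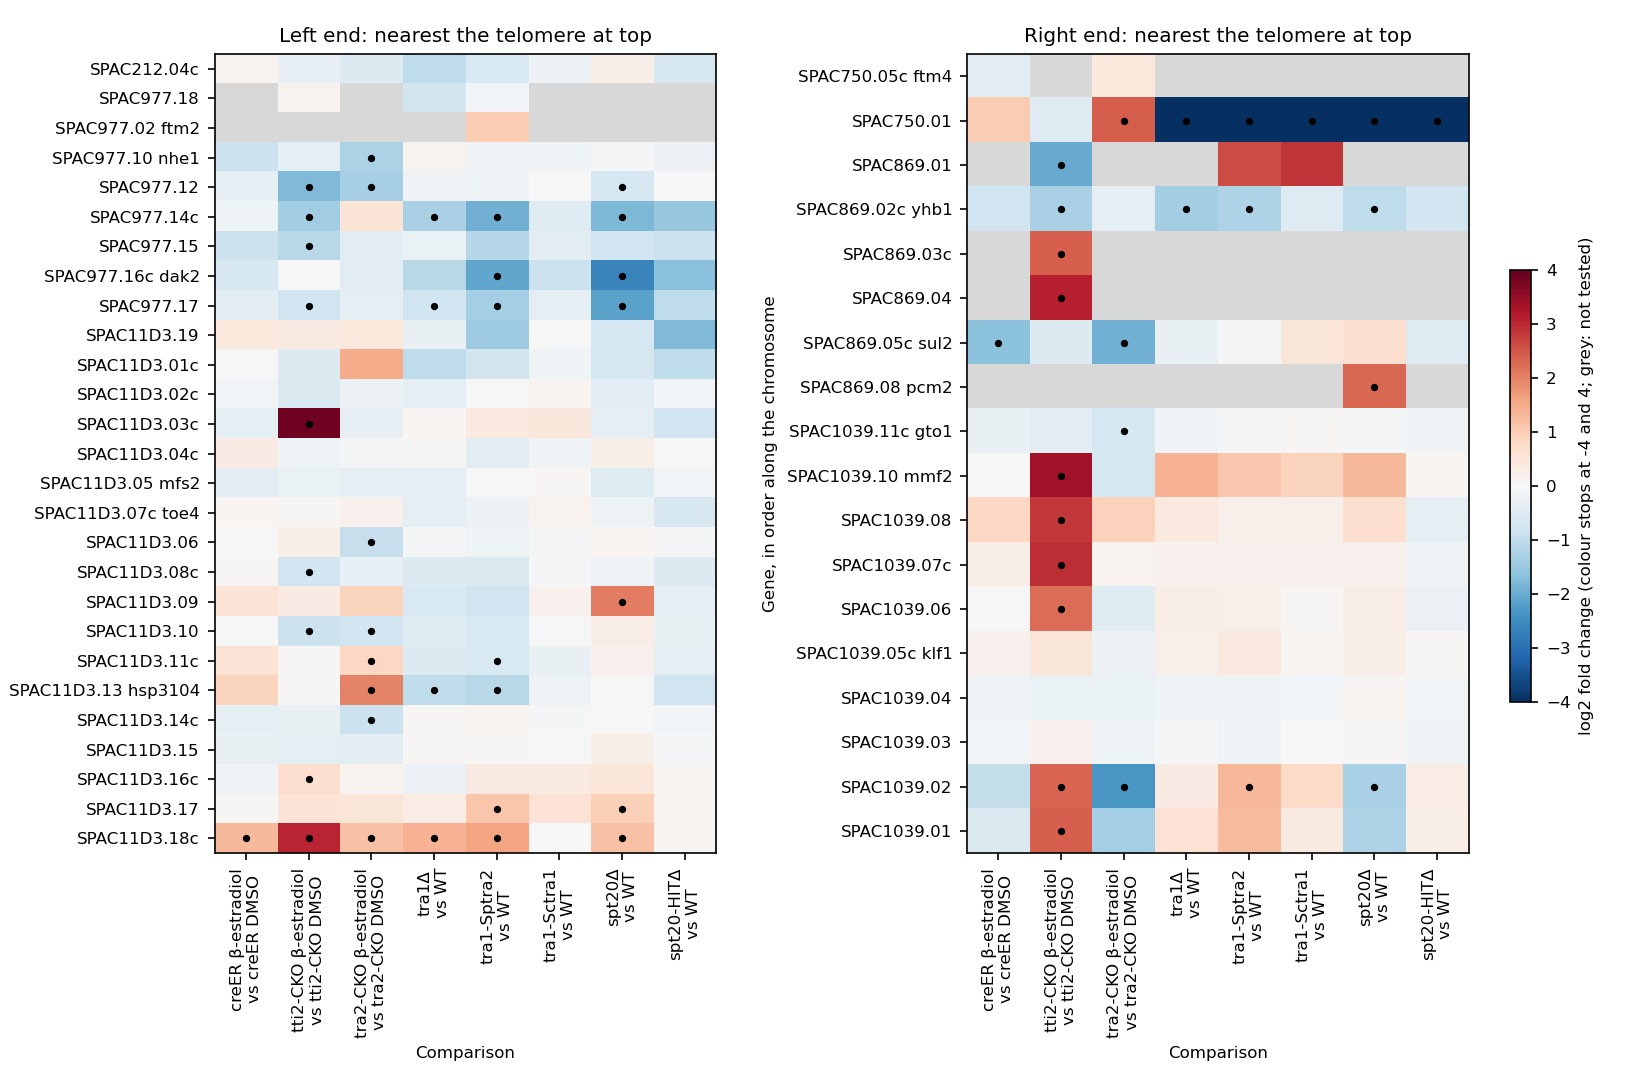
Log2 fold changes of the 45 members tested at least 1 time (rows, ordered from each telomere inward) in the 8 comparisons with DMSO or WT (columns), as colour from −4 (blue) to 4 (red), with grey for not tested and a dot for a call. The red block of the tti2-CKO column lies in SPAC1039, and SPAC750.01 is dark blue in all 5 comparisons with WT.

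**Figure D2:**
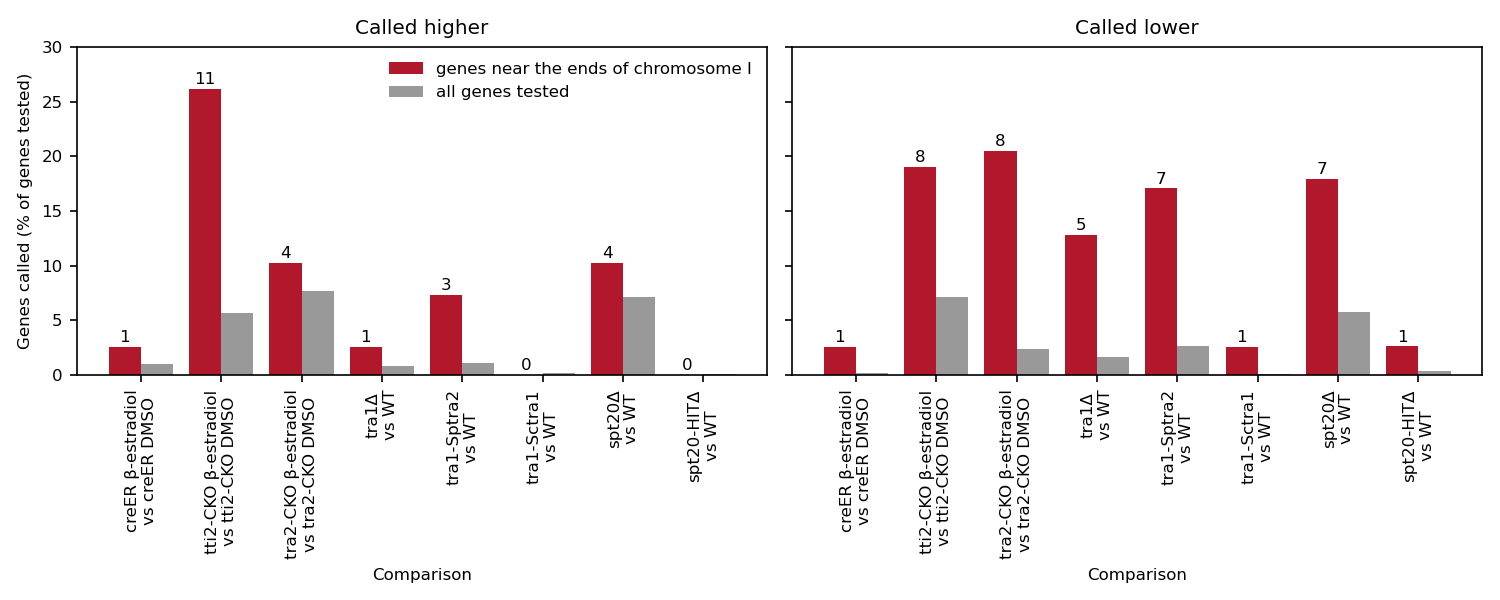
Percent of tested genes called higher (left panel) and lower (right panel), by comparison with DMSO or WT, for the genes near the ends of chromosome I (red bars) and for all genes tested (grey bars). The tti2-CKO bars stand for 11 higher and 8 lower of 42 members, and the spt20-HITΔ bars for 0 and 1 of 38.

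A run of neighbouring genes for enzymes of amino acid metabolism rose in tti2-CKO. Of 5 tested genes of amino acid and carbon metabolism, 3 rose and 1 fell in tti2-CKO with β-estradiol (all genes 5.65% and 7.13%), and the 3 that rose are consecutive genes of SPAC1039. SPAC1039.06, annotated with D-serine ammonia-lyase activity, had 387, 449.9 and 449 CPM in β-estradiol tti2-CKO cultures, against 106, 84.9 and 80.0 CPM in DMSO cultures (log2 fold change 2.24, SE 0.12, adjusted p = 1.34e-06). SPAC1039.07c, an alanine-glyoxylate transaminase gene, had 586, 747 and 603 CPM with β-estradiol, against 85.6, 96.0 and 67.8 CPM with DMSO (log2 fold change 2.95, SE 0.15, adjusted p = 1.16e-06). SPAC1039.08, a serine acetyltransferase gene, had 189, 234 and 261 CPM with β-estradiol, against 34.9, 36.4 and 24.8 CPM with DMSO (log2 fold change 2.83, SE 0.16, adjusted p = 1.66e-06). All treated tti2-CKO cultures of the 3 genes lay far above all DMSO cultures, by 4.73- to 7.74-fold in the fits, and the calls held without any 1 library. SPAC1039.08 was also higher in treated creER, at 34.1, 25.3 and 25.6 CPM, against 25.0, 10.8 and 11.8 CPM with DMSO, without overlap. It was called there with the replicate block (log2 fold change 0.89, adjusted p = 0.00101) and not without it (log2 fold change 0.83, adjusted p = 0.286). SPAC1039.06 and SPAC1039.07c overlapped in creER (0.02 and 0.26 on the log2 scale).

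The rise in tti2-CKO included the next member toward the telomere, which lies beyond SPAC1039.09 (left out by the rule), and, past 3 genes that were not called, the innermost pair of SPAC1039. SPAC1039.10 (mmf2), a homologue of proteins that clear reactive imines in isoleucine synthesis, had 122, 122 and 135 CPM with β-estradiol, against 12.9, 13.8 and 10.5 CPM with DMSO (log2 fold change 3.35, SE 0.12, adjusted p = 1.12e-07). SPAC1039.01 had 1410.0, 1748 and 1397 CPM with β-estradiol, against 326, 379 and 153 CPM with DMSO (log2 fold change 2.40, SE 0.28, adjusted p = 0.000174). SPAC1039.02 had 4309, 6770.1 and 6054 CPM with β-estradiol, against 1213, 1557 and 598 CPM with DMSO (log2 fold change 2.34, SE 0.32, adjusted p = 0.000422). None of the treated cultures of these 3 genes overlapped a DMSO culture. The 3 genes in between are SPAC1039.03 (esterase/lipase), SPAC1039.04 (a carboxylic acid transporter) and SPAC1039.05c (klf1, a zinc cluster transcription factor), which were not called and had log2 fold changes of 0.19, −0.28 and 0.49. The gene nearest the telomere, SPAC1039.11c (gto1, alpha-glucosidase), was at −0.42 and not called either.

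The most highly transcribed member, SPAC1039.02, differed in direction between strains. In tra2-CKO it fell to 149, 121 and 192 CPM with β-estradiol, against 1325, 426 and 583 CPM with DMSO (log2 fold change −2.32, SE 0.40, adjusted p = 0.00267). DMSO replicate 1 lay far above the other 2, and without it the log2 fold change was −1.69, whereas the call was lost without tra2-CKO β-estradiol replicate 1 or 2. In creER it had 541, 445 and 487 CPM with β-estradiol and 1589, 591 and 632 CPM with DMSO, again with 1 high DMSO culture (log2 fold change −0.94, adjusted p = 0.293; with the replicate block, log2 fold change −0.79, adjusted p = 0.00251). Without that culture, creER DMSO replicate 1, it was not called (log2 fold change −0.32, adjusted p = 0.262). It rose in tra1-Sptra2 to 1673, 2133 and 1338 CPM (log2 fold change 1.34, SE 0.21, adjusted p = 0.00330) and fell in spt20Δ to 368, 286 and 167 CPM (log2 fold change −1.30, SE 0.28, adjusted p = 0.00584), against 785, 772 and 482 CPM in WT. Neither mutant overlapped WT, but the call in tra1-Sptra2 was lost without WT replicate 1 or tra1-Sptra2 replicate 1 or 2, or in 1 fit of all 36 libraries, and that in spt20Δ without WT replicate 1 or 2 or spt20Δ replicate 2. Without WT replicate 3, the log2 fold change was 1.15 in tra1-Sptra2 and −1.49 in spt20Δ. Its neighbour SPAC1039.01 in spt20Δ was called with the replicate block alone (126, 108 and 66.1 CPM, against 295, 292 and 118 CPM in WT; log2 fold change −1.18, adjusted p = 3.23e-06), and so were, upward, SPAC1039.08 (log2 fold change 0.69, adjusted p = 0.00151) and mmf2 (SPAC1039.10, log2 fold change 1.29, adjusted p = 0.000370).

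Some SPAC1039 genes were called only without the culture that stood apart. Without tra2-CKO DMSO replicate 1, the response of tra2-CKO to β-estradiol was called for SPAC1039.08 (log2 fold change 1.38, adjusted p = 0.000102; with all cultures, log2 fold change 0.92, adjusted p = 0.0308) and for SPAC1039.01 (log2 fold change −0.63, adjusted p = 7.86e-05; with all cultures, log2 fold change −1.36, adjusted p = 0.0269). Without WT replicate 3, SPAC1039.01 was called higher in tra1-Sptra2 (log2 fold change 0.95, adjusted p = 0.000132; with all cultures, log2 fold change 1.26, adjusted p = 0.0174) and lower in spt20Δ (log2 fold change −1.53, adjusted p = 0.000624; with all cultures, log2 fold change −1.22, adjusted p = 0.0195). Likewise mmf2 (SPAC1039.10) was called higher in tra1Δ without WT replicate 3 (log2 fold change 1.076, adjusted p = 0.00712; with all cultures, log2 fold change 1.39, adjusted p = 0.0205).

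**Figure D3:**
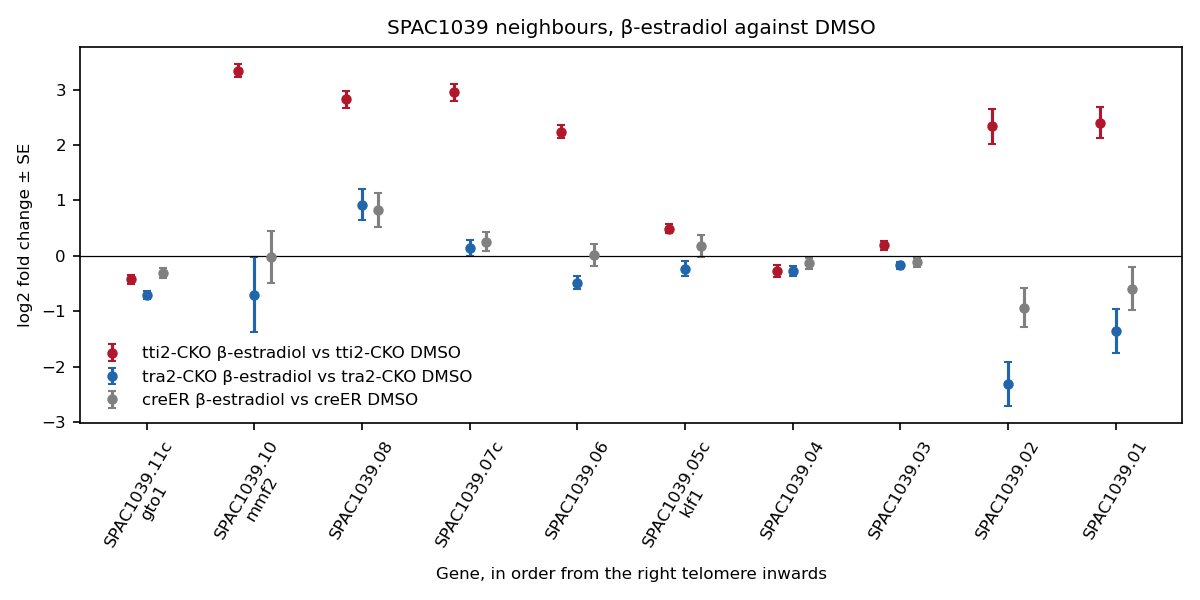
Log2 fold change ± SE (vertical axis) of the 10 SPAC1039 genes in order from the right telomere inward (horizontal axis), with β-estradiol against DMSO in tti2-CKO (red), tra2-CKO (blue) and creER (grey), 3 cultures per group. The 6 called genes of tti2-CKO lie between 2.24 and 3.35, while the grey points stay within 1 log2 unit of 0.

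Elsewhere in this role group the changes were falls. SPAC11D3.10, a gene of the cysteine desulfurase family, had 11.7, 9.81 and 12.5 CPM in tti2-CKO with β-estradiol, against 19.1, 19.8 and 22.2 CPM with DMSO (log2 fold change −0.86, SE 0.16, adjusted p = 0.00250), and 9.32, 11.1 and 9.24 CPM in tra2-CKO with β-estradiol, against 15.5, 17.2 and 18.4 CPM with DMSO (log2 fold change −0.77, SE 0.15, adjusted p = 0.00493). Neither strain's groups overlapped. The first call was lost without tti2-CKO DMSO replicate 1 or 3 or tti2-CKO β-estradiol replicate 1 or 2, and the other without tra2-CKO DMSO replicate 2 or 3 or tra2-CKO β-estradiol replicate 1, 2 or 3. SPAC977.16c (dak2), a dihydroxyacetone kinase that feeds glycerol carbon into glycolysis, fell in SAGA mutants: it had 7.00, 3.96 and 8.62 CPM in spt20Δ and 8.11, 11.3 and 8.76 CPM in tra1-Sptra2, against 33.1, 30.6 and 58.6 CPM in WT (log2 fold changes −2.64, SE 0.34, adjusted p = 0.000648, and −2.09, SE 0.28, adjusted p = 0.00186). All mutant cultures lay below all WT cultures. The tra1-Sptra2 call was lost without tra1-Sptra2 replicate 1, 2 or 3. In tra1Δ it had 24.1, 18.9 and 13.8 CPM, which was not called (log2 fold change −1.11, adjusted p = 0.0320). In spt20-HITΔ and tra1-Sctra1 it was also below WT without overlap or a call (log2 fold changes −1.68 and −0.85, adjusted p = 0.0627 and 0.178).

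Transporters changed in both directions. In tti2-CKO 3 of 10 tested rose and 2 fell (all genes 5.65% and 7.13%), and in tra2-CKO 1 of 9 rose and 3 fell (7.71% and 2.37%). In creER, tra1Δ, tra1-Sptra2 and spt20Δ 1 of 9 rose and 1 fell in each. The shares of all genes called higher and lower were 0.999% and 0.143% in creER and 0.816% and 1.65% in tra1Δ. They were 1.1% and 2.61% in tra1-Sptra2 and 7.09% and 5.73% in spt20Δ. The riser common to all 6 was SPAC11D3.18c, annotated as a carboxylic acid transporter and the innermost SPAC11D3 gene, which was called in 6 of the 8 comparisons, as was SPAC750.01. In β-estradiol cultures it had 127, 137 and 89.9 CPM in tti2-CKO, against 12.9, 19.9 and 10.3 CPM with DMSO (log2 fold change 3.04, SE 0.23, adjusted p = 1.67e-05). In tra2-CKO it had 32.3, 34.2 and 33.9 CPM with β-estradiol, against 19.2, 15.3 and 10.4 CPM with DMSO (log2 fold change 1.17, SE 0.19, adjusted p = 0.00215), and in creER, where nothing is deleted, 32.1, 34.4 and 34.0 CPM with β-estradiol, against 15.9, 13.2 and 12.1 CPM with DMSO (log2 fold change 1.28, SE 0.14, adjusted p = 0.00318). The treated tra2-CKO and creER cultures all lay between 32.1 and 34.4 CPM, and the treated tti2-CKO cultures lay above them. The tra2-CKO call was lost without tra2-CKO β-estradiol replicate 1 or 2, and the creER call without creER DMSO replicate 2 or 3 or creER β-estradiol replicate 2 or 3.

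In the constitutive mutants, SPAC11D3.18c had 19.8, 28.9 and 26.3 CPM in tra1Δ (log2 fold change 1.39, SE 0.20, adjusted p = 0.00253), 24.0, 36.7 and 24.1 CPM in tra1-Sptra2 (log2 fold change 1.59, SE 0.22, adjusted p = 0.00226) and 25.9, 21.4 and 16.9 CPM in spt20Δ (log2 fold change 1.18, SE 0.21, adjusted p = 0.00303), against 8.33, 8.49 and 11.9 CPM in WT. The 3 mutants did not overlap WT. It had 11.7, 9.72 and 7.69 CPM in tra1-Sctra1 and 12.9, 9.57 and 8.27 CPM in spt20-HITΔ, and both overlapped WT. The tra1Δ call was lost without WT replicate 1 or tra1Δ replicate 2 or 3, the tra1-Sptra2 call without WT replicate 1, and the spt20Δ call without WT replicate 1 or 2 or spt20Δ replicate 1 or 2, with a log2 fold change of at least 1.02 in each of these fits.

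SPAC869.05c (sul2), a sulfate transporter gene, fell with β-estradiol both with and without a floxed gene. It had 8.12, 8.80 and 7.78 CPM in treated tra2-CKO, against 35.97, 31.7 and 27.4 CPM with DMSO (log2 fold change −1.93, SE 0.15, adjusted p = 6.89e-05), and 10.4, 12.7 and 10.7 CPM in treated creER, against 47.2, 31.7 and 26.1 CPM with DMSO (log2 fold change −1.64, SE 0.23, adjusted p = 0.00859). The treated cultures of both strains lay well below their controls, although the creER call was lost without creER DMSO replicate 2 or 3 or creER β-estradiol replicate 1, 2 or 3. In tti2-CKO it had 35.6, 27.2 and 15.9 CPM with β-estradiol, against 37.5, 39.4 and 36.3 CPM with DMSO (log2 fold change −0.54, adjusted p = 0.0988). In spt20Δ it had 51.7, 52.6 and 88.0 CPM, against 43.2, 37.4 and 38.4 CPM in WT, called with the replicate block alone (log2 fold change 0.65, adjusted p = 0.00354).

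The other transporters changed in 1 or a few strains. SPAC977.10 (nhe1), a sodium/proton antiporter of the plasma membrane, fell in tra2-CKO to 37.2, 42.7 and 31.4 CPM with β-estradiol, against 93.2, 92.9 and 87.4 CPM with DMSO (log2 fold change −1.28, SE 0.10, adjusted p = 9.13e-05). In treated creER it was also below its control, at 61.3, 47.3 and 46.2 CPM with β-estradiol, against 105, 104 and 71.5 CPM with DMSO, which was called with the replicate block (log2 fold change −0.86, adjusted p = 5.33e-06) and not without it (log2 fold change −0.87, adjusted p = 0.0340). SPAC11D3.06, of the MatE family of multidrug and toxin extruders, fell in tra2-CKO to 13.3, 18.3 and 14.8 CPM with β-estradiol, against 27.5, 32.2 and 28.6 CPM with DMSO (log2 fold change −0.92, SE 0.15, adjusted p = 0.00205), a call lost without tra2-CKO β-estradiol replicate 1 or 3. In creER it had 32.1, 39.7 and 35.4 CPM with β-estradiol and 30.9, 37.5 and 38.5 CPM with DMSO, and the groups overlapped. SPAC11D3.08c, an amino acid permease gene, fell in tti2-CKO to 49.1, 50.9 and 56.1 CPM with β-estradiol, against 99.9, 74.7 and 91.3 CPM with DMSO (log2 fold change −0.77, SE 0.11, adjusted p = 0.000617).

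SPAC977.17, of the MIP superfamily (aquaglyceroporins, channels for water and glycerol), was called lower in 4 comparisons. It had 19.0, 18.3 and 21.1 CPM in spt20Δ (log2 fold change −2.15, SE 0.11, adjusted p = 1.56e-05), 30.8, 35.8 and 32.6 CPM in tra1-Sptra2 (log2 fold change −1.37, SE 0.10, adjusted p = 0.000131) and 46.4, 59.4 and 44.8 CPM in tra1Δ (log2 fold change −0.79, SE 0.12, adjusted p = 0.00384), against 77.2, 85.7 and 96.4 CPM in WT. In tti2-CKO it had 32.0, 27.8 and 46.3 CPM with β-estradiol, against 61.9, 63.0 and 59.4 CPM with DMSO (log2 fold change −0.81, SE 0.16, adjusted p = 0.00344). The order of the levels against WT was spt20Δ lowest, then tra1-Sptra2, then tra1Δ, with no overlap between neighbours in that order. The calls in spt20Δ and tra1-Sptra2 held without any 1 library, that in tra1Δ was lost without tra1Δ replicate 1 or 3, and that in tti2-CKO without tti2-CKO DMSO replicate 1 or 3 or tti2-CKO β-estradiol replicate 1 or 2. SPAC977.17 and dak2 are neighbours, and both fell in spt20Δ and tra1-Sptra2.

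SPAC869.03c, a urea transporter gene, was hardly transcribed anywhere. It rose in tti2-CKO, with counts of 9, 23 and 13 in treated cultures, against 1, 4 and 3 in DMSO cultures (log2 fold change 2.39, SE 0.54, adjusted p = 0.00626). The highest of its means was 2.08 CPM, and the call was lost without tti2-CKO DMSO replicate 1 or 3 or tti2-CKO β-estradiol replicate 1 or 2.

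Of the 3 transcription factor genes, SPAC11D3.07c (toe4) and SPAC1039.05c (klf1) were called in none of the 8 comparisons. SPAC11D3.17, coding for a zinc cluster factor of the fungal type, rose in tra1-Sptra2 to 48.4, 61.6 and 55.5 CPM (log2 fold change 1.10, SE 0.13, adjusted p = 0.00126) and in spt20Δ to 52.2, 59.5 and 36.4 CPM (log2 fold change 0.94, SE 0.19, adjusted p = 0.00481), against 26.6, 29.6 and 21.2 CPM in WT. Neither mutant overlapped WT, and the spt20Δ call was lost without WT replicate 1 or spt20Δ replicate 1 or 2. SPAC11D3.18c, its neighbour, was also called higher in both strains.

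Most redox and detoxification genes were called lower in 3 of the 5 constitutive mutants. All 4 fell in tra1Δ and in tra1-Sptra2 and 3 of 4 in spt20Δ (all genes 1.65%, 2.61% and 5.73% lower), where hsp3104 (SPAC11D3.13) was at −0.03 on the log2 scale. In tra1-Sctra1 and spt20-HITΔ only SPAC750.01 was called, with calls that single libraries undo. Below WT in spt20-HITΔ without overlap, but not called, were SPAC977.14c (log2 fold change −1.52, adjusted p = 0.0270), yhb1 (−0.77, adjusted p = 0.0321) and hsp3104 (−0.80, adjusted p = 0.0732). In tra1-Sctra1, yhb1 and SPAC977.14c were at −0.51 and −0.50 without overlap, and hsp3104 was at −0.20 with overlap. With β-estradiol, 2 of 4 fell in tti2-CKO and 2 of 4 rose in tra2-CKO (all genes 7.13% lower and 7.71% higher). This group of 4 was chosen with earlier results known. SPAC869.02c (yhb1), a flavohaemoglobin that detoxifies nitric oxide, had 68.3, 83.1 and 67.2 CPM in tra1Δ (log2 fold change −1.38, SE 0.12, adjusted p = 0.000151), 79.7, 80.8 and 77.0 CPM in tra1-Sptra2 (log2 fold change −1.25, SE 0.10, adjusted p = 0.000201) and 75.6, 96.3 and 106 CPM in spt20Δ (log2 fold change −1.03, SE 0.14, adjusted p = 0.000998), against 182, 165 and 219.6 CPM in WT. In tti2-CKO it had 45.7, 47.7 and 41.3 CPM with β-estradiol, against 114, 93.3 and 123 CPM with DMSO (log2 fold change −1.29, SE 0.11, adjusted p = 3.42e-05). Mutant and treated cultures lay below their controls without overlap, and all 4 calls held without any 1 library. Treated creER cultures, at 41.8, 41.6 and 54.1 CPM, also lay below DMSO cultures, at 72.8, 78.4 and 87.1 CPM, called with the replicate block (log2 fold change −0.81, adjusted p = 6.30e-06) and not without it (log2 fold change −0.80, adjusted p = 0.0154).

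SPAC11D3.13 (hsp3104), of the ThiJ family with glyoxalase III activity against methylglyoxal, moved in opposite directions. In tra2-CKO it rose to 87.0, 92.3 and 88.2 CPM with β-estradiol, against 22.1, 23.0 and 23.8 CPM with DMSO (log2 fold change 1.97, SE 0.07, adjusted p = 1.86e-06). In creER it had 48.6, 70.7 and 49.8 CPM with β-estradiol, against 22.4, 34.5 and 33.5 CPM with DMSO (log2 fold change 0.90, adjusted p = 0.0643), higher in all treated cultures and called with the replicate block (log2 fold change 0.90, adjusted p = 5.06e-05). It fell to 17.3, 14.9 and 17.3 CPM in tra1Δ (log2 fold change −1.001, SE 0.15, adjusted p = 0.00294) and to 16.9, 14.1 and 14.6 CPM in tra1-Sptra2 (log2 fold change −1.12, SE 0.15, adjusted p = 0.00186), against 32.7, 28.2 and 38.7 CPM in WT. The tra2-CKO rise held in every fit, whereas the tra1Δ fall was lost without WT replicate 1 or tra1Δ replicate 1, 2 or 3, and the tra1-Sptra2 fall without WT replicate 1 or tra1-Sptra2 replicate 2 or 3.

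The aldo/keto reductase copies, whose differing windows are printed above, were called in different sets of comparisons. SPAC977.14c, on the left end, fell to 68.6, 64.9 and 71.7 CPM in tra1-Sptra2 (log2 fold change −1.91, SE 0.13, adjusted p = 6.57e-05), 75.8, 57.9 and 91.0 CPM in spt20Δ (log2 fold change −1.78, SE 0.18, adjusted p = 0.000259) and 97.0, 128 and 88.4 CPM in tra1Δ (log2 fold change −1.31, SE 0.16, adjusted p = 0.000881), against 262, 209.6 and 302 CPM in WT. In tti2-CKO it fell to 64.4, 55.9 and 83.7 CPM with β-estradiol, against 192, 154 and 181 CPM with DMSO (log2 fold change −1.38, SE 0.13, adjusted p = 6.07e-05). These groups did not overlap, and of the 4 calls the one in tra1Δ was lost, without tra1Δ replicate 1. In tra2-CKO it had 148, 177 and 170.2 CPM with β-estradiol, against 104, 129.9 and 109 CPM with DMSO, a difference under the fold limit (log2 fold change 0.55, adjusted p = 0.00375). About 29.1% of its 50-base windows, and 32.8% of those of SPAC750.01, occur in the other copy, so part of their reads could not be assigned.

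SPAC750.01, on the right end, rose in tra2-CKO and was near 0 in every mutant grown beside WT. In tra2-CKO it had 35.7, 36.3 and 29.6 CPM with β-estradiol, against 6.76, 6.44 and 6.08 CPM with DMSO (log2 fold change 2.41, SE 0.14, adjusted p = 1.97e-05), a call that held without any 1 library. Treated creER cultures, at 15.7, 26.1 and 20.0 CPM, were also above DMSO cultures, at 12.96, 11.1 and 6.76 CPM, and were called with the replicate block (log2 fold change 1.000, adjusted p = 0.00270) but not without it (log2 fold change 1.000, adjusted p = 0.132). In tti2-CKO the groups overlapped at 2.82, 1.56 and 3.056 CPM with β-estradiol and 5.55, 3.29 and 1.45 CPM with DMSO.

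Counts of SPAC750.01 were 2, 1 and 1 in tra1Δ, 6, 0 and 2 in tra1-Sctra1 and 2, 0 and 0 in spt20Δ, against 53, 50 and 52 in WT. That is 37.0-fold lower in tra1Δ (95% counting interval 14.1 to 137), 17.4-fold lower in tra1-Sctra1 (8.62 to 41.1) and 69.5-fold lower in spt20Δ (18.9 to 579), where exact intervals cover counting error only. In tra1-Sptra2 and spt20-HITΔ no library had a count, so that it was at least 17.3-fold and at least 15.7-fold lower, with 3 counts per library as the floor. It was called in all 5 mutants (adjusted p = 7.63e-05 in tra1Δ, 0.000328 in tra1-Sptra2, 0.00381 in tra1-Sctra1, 0.000183 in spt20Δ and 0.00686 in spt20-HITΔ). The calls in tra1Δ, tra1-Sptra2 and spt20Δ held without any 1 library. Without spt20Δ replicate 1, the only spt20Δ library with counts, the fitted log2 fold change was −8.59, against −5.89, and without tra1-Sctra1 replicate 1 it was −5.43, against −4.07; the mutant libraries left in hold 0 and 0 counts in spt20Δ and 0 and 2 in tra1-Sctra1. The spt20-HITΔ call was lost without WT replicate 1, 2 or 3 or spt20-HITΔ replicate 1 or 3. The tra1-Sctra1 call was lost without WT replicate 1 or tra1-Sctra1 replicate 1, 2 or 3, or with the replicate block (log2 fold change −4.08, adjusted p = 0.0542). The pairing behind that block passed the limit used here but is weak (r 0.146, 0.116 and 0.161).

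Other genes of that end were also low in these strains, unevenly among cultures. SPAC750.05c (ftm4), of a family of subtelomeric membrane proteins and with 92.4% of its windows shared, had 0 counts in all libraries of tra1Δ, spt20Δ and spt20-HITΔ, 0, 1 and 1 in tra1-Sptra2 and 1, 0 and 1 in tra1-Sctra1, against 1, 11 and 8 in WT. In the inducible strains it had 2, 5 and 3 counts in tti2-CKO with β-estradiol and 1, 5 and 2 with DMSO, against 55, 51 and 28 in creER with DMSO, a difference between DMSO cultures that was not called (log2 fold change −4.13, adjusted p = 0.0229). In these bulk cultures, fewer cells with the transcript and less transcript per cell cannot be told apart. SPAC186.05c (gdt1), a gene a little inward of SPAC750.01 that is not among the 70, had 2, 2 and 4 counts in tra1-Sptra2 (log2 fold change −7.81, SE 0.19, adjusted p = 1.23e-07), 18, 19 and 49 counts in tra1-Sctra1 (log2 fold change −4.29, SE 0.22, adjusted p = 1.18e-05) and 23, 1 and 2 counts in spt20-HITΔ (log2 fold change −6.00, SE 0.46, adjusted p = 0.00484), against 723, 643 and 505 counts in WT. It fell in all cultures of these 3 mutants, but had 148, 5 and 3 counts in tra1Δ and 192, 5 and 151 counts in spt20Δ, where cultures differed widely and no call was made (adjusted p = 0.0103 and 0.0113). SPAC186.06, the gene beside it, had 8, 1 and 0 counts in tra1Δ, 0, 1 and 0 in tra1-Sptra2, 4, 0 and 4 in tra1-Sctra1, 17, 0 and 5 in spt20Δ and 0, 0 and 0 in spt20-HITΔ, against 25, 31 and 14 in WT. Of the 5 mutants it was called, lower, in tra1-Sptra2 alone (log2 fold change −5.68, SE 0.68, adjusted p = 0.00120). Several genes of the right end were thus low in the same mutants. For SPAC750.01, ftm4 and these neighbours a lower transcript level and a loss of the sequence from some or all cells of a strain cannot be told apart from counts. The folds and calls of SPAC750.01 against WT are to be read with that limit.

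**Figure D4:**
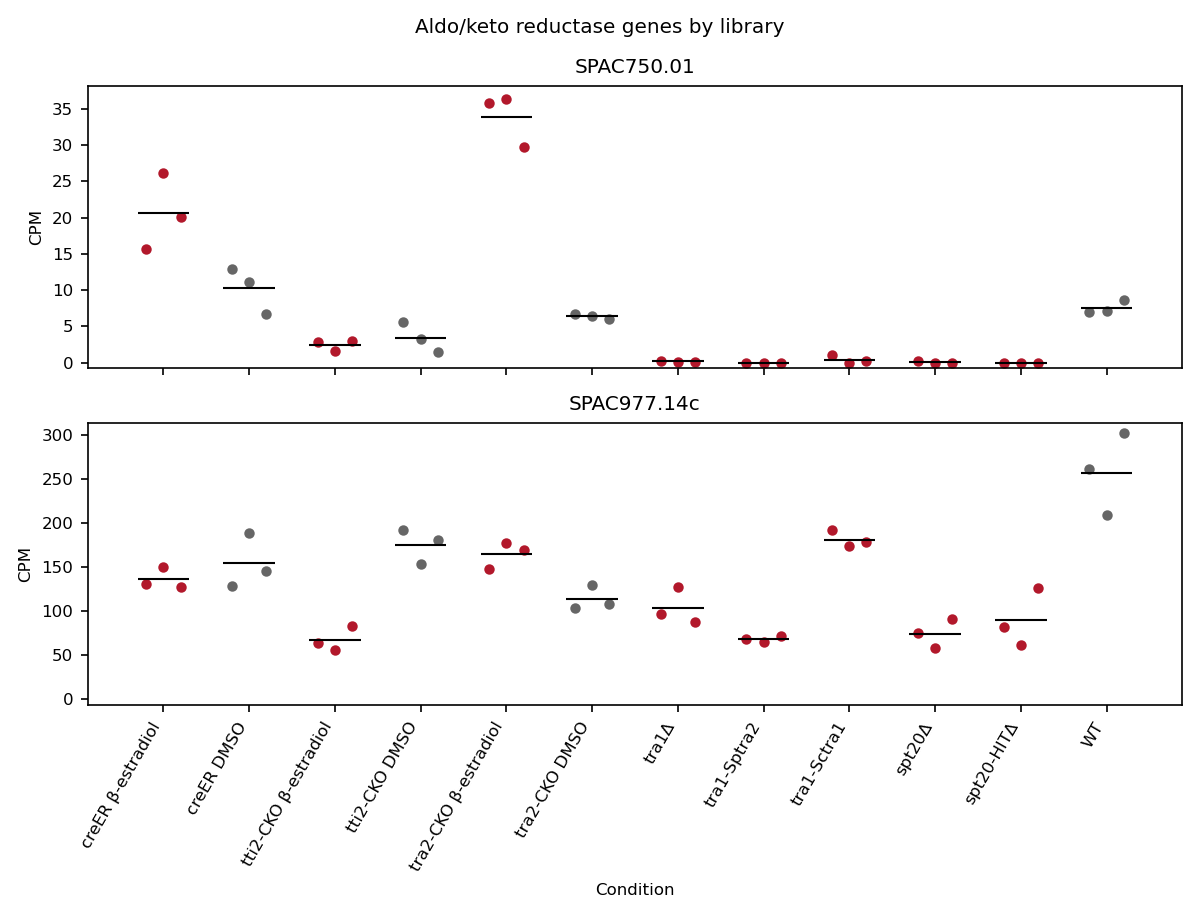
CPM of SPAC750.01 (top) and SPAC977.14c (bottom) in each of the 36 libraries by condition (horizontal axis), with mutant and β-estradiol libraries in red, DMSO and WT libraries in grey and the mean of 3 as a line. SPAC750.01 lies at or near 0 in all 5 mutants grown beside WT and is highest in tra2-CKO with β-estradiol, at 29.6 to 36.3 CPM.

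Hydrolases were split as well. Of 10 tested in tti2-CKO, 2 rose and 3 fell (all genes 5.65% and 7.13%), and of 8 tested in tra2-CKO, 4 fell (all genes 2.37%). SPAC1039.02, described above, is 1 of those that rose in tti2-CKO and fell in tra2-CKO. SPAC977.12, coding for L-asparaginase, fell in tti2-CKO to 24.7, 22.6 and 20.5 CPM with β-estradiol, against 74.3, 80.4 and 76.3 CPM with DMSO (log2 fold change −1.78, SE 0.11, adjusted p = 3.76e-06), and in tra2-CKO to 25.4, 30.8 and 28.8 CPM with β-estradiol, against 61.3, 74.6 and 79.6 CPM with DMSO (log2 fold change −1.33, SE 0.12, adjusted p = 0.000147). Both falls held without any 1 library, while creER had 62.1, 70.8 and 67.4 CPM with β-estradiol and 76.8, 92.5 and 90.3 CPM with DMSO (log2 fold change −0.38, adjusted p = 0.114). In spt20Δ it had 44.5, 52.6 and 60.7 CPM, against 78.4, 81.3 and 90.9 CPM in WT (log2 fold change −0.67, SE 0.12, adjusted p = 0.00267), a call lost without WT replicate 1 or spt20Δ replicate 1 or 2. In tra1Δ and spt20-HITΔ it was not called (−0.13 and −0.01 on the log2 scale). The near-identical copy SPBPB8B6.05c fell too (−1.58 on the log2 scale in tti2-CKO and −1.14 in tra2-CKO) and was at −0.62 in spt20Δ, without a call. With 73.3% of the windows of SPAC977.12 shared, it is uncertain which copy changed.

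Several hydrolase genes were called in only 1 of the 8 comparisons. SPAC11D3.09, annotated as agmatinase, was low in WT and rose in spt20Δ to 16.8, 13.5 and 15.7 CPM, against 3.31, 4.75 and 3.146 CPM in WT (log2 fold change 2.04, SE 0.21, adjusted p = 0.000294). SPAC11D3.14c, an oxoprolinase gene of glutathione turnover, fell in tra2-CKO to 22.9, 27.1 and 30.7 CPM with β-estradiol, against 51.2, 46.8 and 49.6 CPM with DMSO (log2 fold change −0.86, SE 0.12, adjusted p = 0.00101), and SPAC1039.11c (gto1) to 39.1, 37.8 and 41.7 CPM with β-estradiol, against 68.3, 60.5 and 67.2 CPM with DMSO (log2 fold change −0.71, SE 0.08, adjusted p = 0.000409). These 3 calls held without any 1 library. In creER, SPAC11D3.14c and gto1 were also lower with β-estradiol, without overlap or a call (log2 fold changes −0.39 and −0.31, adjusted p = 0.182 and 0.184). SPAC977.15, of the dienelactone hydrolase family, fell in tti2-CKO to 3.95, 4.12 and 2.75 CPM with β-estradiol, against 8.76, 6.89 and 7.84 CPM with DMSO (log2 fold change −1.11, SE 0.25, adjusted p = 0.00654), a call lost without tti2-CKO DMSO replicate 1 or 3 or tti2-CKO β-estradiol replicate 1, 2 or 3, or in 1 fit of all 36 libraries. Treated creER cultures were also lower for SPAC977.15, without overlap or a call (log2 fold change −0.87, adjusted p = 0.2485). Its response in tti2-CKO differed from that in creER by −0.23, which was not called (adjusted p = 0.758).

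At low levels, neighbours in SPAC869 moved in opposite directions. SPAC869.04, annotated as formamidase-like, rose in tti2-CKO with counts of 21, 53 and 53 in treated cultures, against 0, 4 and 10 in DMSO cultures (log2 fold change 3.103, SE 0.59, adjusted p = 0.00264). It had no more than 3 counts in any library outside that strain, the call was lost without tti2-CKO β-estradiol replicate 2, and the log2 fold change was 4.29 without DMSO replicate 3. SPAC869.01, an amidase gene, fell in the same strain, with 6, 16 and 3 counts with β-estradiol, against 28, 41 and 29 with DMSO (log2 fold change −2.01, SE 0.43, adjusted p = 0.00465); the call was lost without tti2-CKO DMSO replicate 1, 2 or 3 or tti2-CKO β-estradiol replicate 1, or in 1 fit of all 36 libraries, and the log2 fold change was −2.60 without β-estradiol replicate 2. It had 39, 108 and 24 counts in tra1-Sptra2 and 84, 53 and 37 in tra1-Sctra1, against 12, 8 and 7 in WT, above WT in every library but just outside the call (log2 fold changes 2.59 and 2.85, adjusted p = 0.0101 and 0.0129).

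Among genes of unknown or repeat families, 3 of 10 tested rose in tti2-CKO (all genes 5.65%). The steepest was SPAC11D3.03c, which codes for an uncharacterised protein: 453, 509 and 430.3 CPM with β-estradiol, against 32.3, 40.9 and 19.6 CPM with DMSO, was a 14.98-fold rise in the fit (log2 fold change 3.90, SE 0.21, adjusted p = 1.55e-06). No other condition averaged above 30.9 CPM, the call held without any 1 library, and creER had 14.0, 7.55 and 7.82 CPM with β-estradiol and 23.7, 6.43 and 6.92 CPM with DMSO. SPAC11D3.16c, also uncharacterised, rose to 57.4, 62.7 and 46.0 CPM in tti2-CKO with β-estradiol, against 31.8, 33.2 and 38.5 CPM with DMSO (log2 fold change 0.68, SE 0.14, adjusted p = 0.00397), a call lost without tti2-CKO DMSO replicate 1 or tti2-CKO β-estradiol replicate 1 or 2.

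SPAC11D3.11c, annotated as a truncated zinc cluster protein, rose in tra2-CKO to 51.4, 55.1 and 54.6 CPM with β-estradiol, against 26.3, 32.7 and 32.5 CPM with DMSO (log2 fold change 0.83, SE 0.10, adjusted p = 0.000672), and fell in tra1-Sptra2 to 42.0, 49.2 and 42.3 CPM, against 65.6, 72.9 and 64.4 CPM in WT (log2 fold change −0.60, SE 0.09, adjusted p = 0.00270). Neither pair of groups overlapped, and the tra1-Sptra2 call was lost without WT replicate 1 or 2 or tra1-Sptra2 replicate 1 or 3. In creER, SPAC11D3.11c was also higher with β-estradiol, without overlap or a call (log2 fold change 0.54, adjusted p = 0.0320). Its response in tra2-CKO differed from that in creER by 0.27, which was not called (adjusted p = 0.318). SPAC869.08 (pcm2), a protein-repair methyltransferase gene, rose in spt20Δ, with 23, 32 and 28 counts, against 10, 4 and 5 in WT (log2 fold change 2.29, SE 0.40, adjusted p = 0.00252), a call lost without WT replicate 2 or spt20Δ replicate 2.

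The outermost left gene, SPAC212.11 (tlh1), codes for a RecQ-type helicase and shares 99.1% of its windows with tlh2, the copy at an end of chromosome II, so its counts are uncertain. It was too low to be tested, except in the fit of spt20Δ and WT with the replicate block, which called it higher (log2 fold change 4.54, adjusted p = 0.00107). It passed the filter on low counts there only through the spt20Δ libraries in which it was high, so that call is no support. The groups also overlapped, with 1 count in spt20Δ replicate 2 and 3 in WT replicate 2. Counts were 37, 1 and 57 in spt20Δ, 49, 0 and 2 in tra2-CKO with β-estradiol and 47, 0 and 0 with DMSO, against 1, 3 and 0 in WT, and no library of another condition exceeded 11. The high values were thus confined to 4 libraries of 36, replicate 1 of both tra2-CKO treatments and replicates 1 and 3 of spt20Δ. In those 4 libraries, tlh2 counts were 75 and 94 in tra2-CKO with β-estradiol and DMSO, and 58 and 81 in spt20Δ. SPAC212.06c, a shorter helicase-like gene beside it, had 21, 8 and 9 counts in spt20Δ and 12 in replicate 1 of each tra2-CKO treatment.

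**Figure D5:**
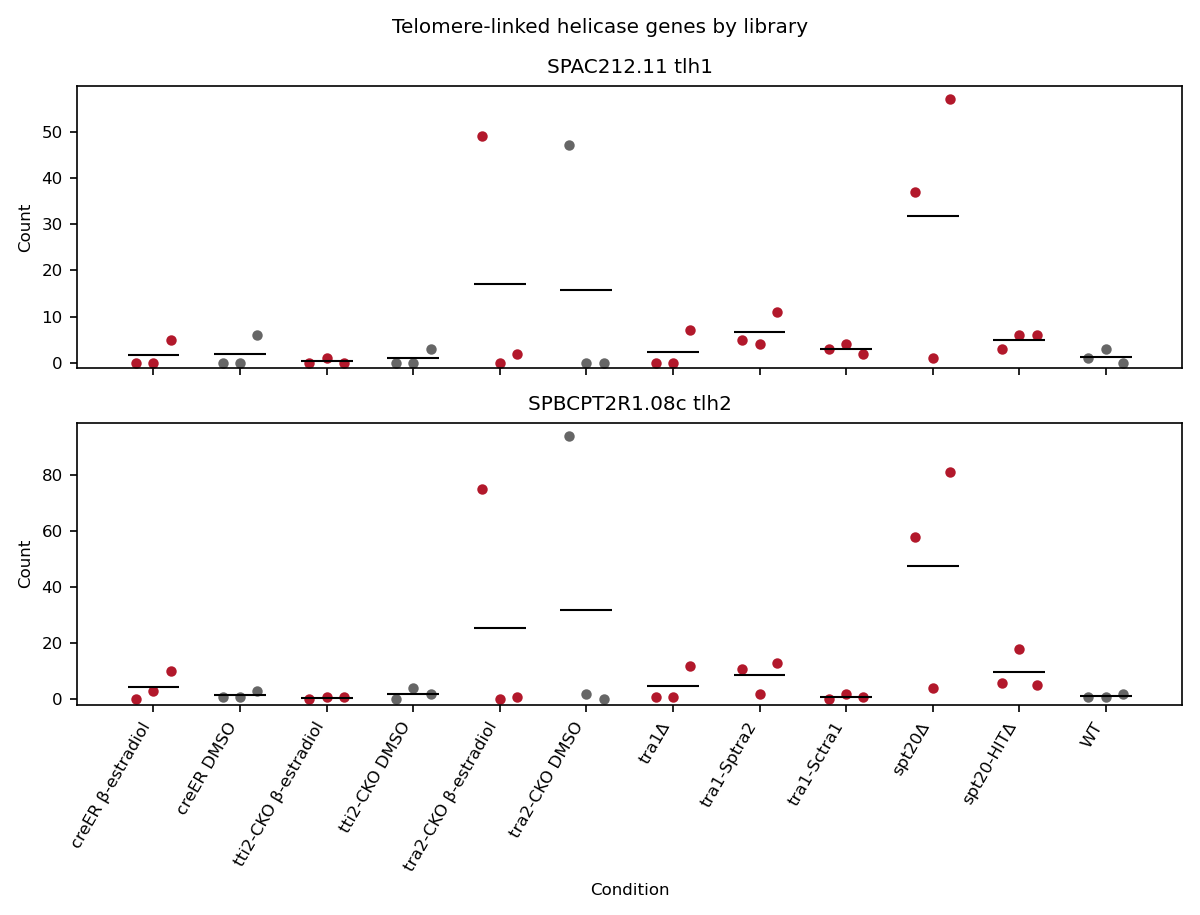
Counts of tlh1 (top) and its copy tlh2 (bottom) in each of the 36 libraries by condition (horizontal axis), with mutant and β-estradiol libraries in red, DMSO and WT libraries in grey and the mean of 3 as a line. Replicate 1 of tra2-CKO in both treatments and replicates 1 and 3 of spt20Δ stand above all other libraries for both genes.

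The 14 members that were tested against DMSO or WT and never called were SPAC1039.03, SPAC1039.04, klf1, SPAC11D3.01c, SPAC11D3.02c, SPAC11D3.04c, SPAC11D3.05 (mfs2), toe4, SPAC11D3.15, SPAC11D3.19, SPAC212.04c, ftm4, SPAC977.02 and SPAC977.18. SPAC1039.03 stayed between 66.0 and 99.9 CPM over all 36 libraries. SPAC11D3.15, a 5-oxoprolinase gene beside SPAC11D3.14c, ranged over 76.3 to 195 CPM, and SPAC11D3.04c, of the polyketide cyclase fold, over 54.7 to 116 CPM. SPAC11D3.01c, of the Con-6 family, varied more, from 7.05 to 101 CPM, with no call (adjusted p = 0.0434 in tra2-CKO). The 25 members with too few counts for any of these tests were SPAC11D3.20, SPAC869.06c and SPAC869.09; SPAC212.01c, SPAC212.02, SPAC212.03, SPAC212.06c, SPAC212.08c, SPAC212.11 and SPAC212.12; SPAC750.02c, SPAC750.03c, SPAC750.04c, SPAC750.06c, SPAC750.07c and SPAC750.08c; and SPAC977.01, SPAC977.03, SPAC977.04, SPAC977.05c, SPAC977.06, SPAC977.07c, SPAC977.08, SPAC977.09c and SPAC977.11.

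Beside SPAC750.01 and SPAC750.05c, members at 0 in all libraries of 1 condition and above 0 in all of another were SPAC11D3.20, SPAC212.03, SPAC750.06c, SPAC869.04, SPAC869.06c (hry1), SPAC869.09, SPAC977.01 (ftm1) and SPAC977.05c. Most of these rest on few counts: the highest count in a library was 17 for hry1, 16 for SPAC869.09, 9 for SPAC750.06c and at most 5 for SPAC11D3.20, SPAC212.03, ftm1 and SPAC977.05c. SPAC750.06c, like its neighbour ftm4, had counts of 3, 9 and 6 in creER with DMSO, and 0 in all 6 libraries of the tti2-CKO strain. SPAC977.18, uncharacterised and 84.2% shared, was called lower in spt20Δ only with the replicate block, at 0, 1 and 1 counts, against 17, 14 and 6 in WT (log2 fold change −3.83, adjusted p = 0.00382). It passed the filter on low counts there only through WT, in which it was high, so that call is no support.

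The 2 spt20 mutants were also compared directly. Between spt20-HITΔ and spt20Δ, 2 of 38 members were called, both lower in spt20-HITΔ, where 4.26% of all genes were called. SPAC11D3.09 had 4.12, 2.52 and 2.104 CPM in spt20-HITΔ, against 16.8, 13.5 and 15.7 CPM in spt20Δ (log2 fold change −2.40, SE 0.26, adjusted p = 0.00140), lost without spt20Δ replicate 1. The sulfate transporter gene sul2 (SPAC869.05c) had 24.6, 30.9 and 28.6 CPM in spt20-HITΔ, against 51.7, 52.6 and 88.0 CPM in spt20Δ (log2 fold change −1.18, SE 0.21, adjusted p = 0.00898), lost without spt20Δ replicate 1 or 2 or spt20-HITΔ replicate 1 or 3. Neither pair overlapped, but the count itself was unsteady: 0 without spt20Δ replicate 1, 1 without spt20Δ replicate 2 or spt20-HITΔ replicate 1, 6 without spt20-HITΔ replicate 2 and 4 without its replicate 3.

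With DMSO alone, members were compared between the floxed strains and creER. Between tti2-CKO and creER DMSO cultures, 0 of 41 members were called by edgeR (0% of all genes) and 1 by DESeq2. An unadjusted p under 0.05 was reached by 12 members, against 710 of 4888 genes. Without creER DMSO replicate 1, 9 were called, among them klf1, SPAC1039.06, SPAC1039.08 and mmf2 of SPAC1039, all higher in tti2-CKO. Between tra2-CKO and creER DMSO cultures, 0 of 39 were called (0% of all genes), and 0 by DESeq2. An unadjusted p under 0.05 was reached by 6 members, against 260 of 4879 genes.

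Interaction terms tested whether strains responded unequally to β-estradiol. They share creER, tti2-CKO and tra2-CKO libraries with each other and with the comparisons above, and their values are differences of log2 fold changes, the strain named first minus the other. Between tti2-CKO and creER, the response of 10 of 43 members differed (2.43% of all genes), 8 upward and 2 downward in tti2-CKO relative to creER. The count was 5 without creER β-estradiol replicate 2 or 3, without tti2-CKO DMSO replicate 1 and without tti2-CKO β-estradiol replicate 2, and 6 without tti2-CKO DMSO replicate 3. The upward ones were the 6 SPAC1039 genes that rose, SPAC11D3.03c (difference 4.28, SE 0.57, adjusted p = 0.000886) and SPAC11D3.18c (difference 1.77, SE 0.30, adjusted p = 0.00393), and the downward ones SPAC977.12 (difference −1.38, SE 0.14, adjusted p = 0.000109) and SPAC977.14c (difference −1.17, SE 0.23, adjusted p = 0.00757). Without creER DMSO replicate 1, the culture in which they were high, the difference was 3.38 for SPAC11D3.03c, 2.32 for SPAC1039.01, 2.67 for SPAC1039.02 and 2.75 for mmf2 (SPAC1039.10), against 4.28, 3.02, 3.30 and 3.40 with it. For SPAC1039.06, SPAC1039.07c, mmf2, SPAC11D3.03c and SPAC977.12 the call held without any 1 library. For SPAC1039.01 it was lost without creER β-estradiol replicate 2 or 3 or tti2-CKO DMSO replicate 1 or 3 or tti2-CKO β-estradiol replicate 1, 2 or 3, for SPAC1039.02 without creER β-estradiol replicate 2 or 3 or tti2-CKO DMSO replicate 1 or tti2-CKO β-estradiol replicate 2, and for SPAC1039.08 without creER β-estradiol replicate 2 or 3 or tti2-CKO DMSO replicate 1 or 3 or tti2-CKO β-estradiol replicate 2 or 3. For SPAC11D3.18c it was lost without creER β-estradiol replicate 2 or 3 or tti2-CKO DMSO replicate 1 or 3 or tti2-CKO β-estradiol replicate 1 or 2, and for SPAC977.14c without creER DMSO replicate 3 or creER β-estradiol replicate 1, 2 or 3 or tti2-CKO DMSO replicate 1 or 3 or tti2-CKO β-estradiol replicate 1 or 2.

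Between tra2-CKO and creER, 12 of 40 members had an unadjusted p under 0.05, against 981 of 4946 genes. Of the 40, 0 were called (0.384% of all genes), and 5 by DESeq2. The nearest was SPAC977.12 (difference −0.96, adjusted p = 0.0108), followed by SPAC11D3.06 (difference −0.93, adjusted p = 0.0359); hsp3104 (difference 1.06, adjusted p = 0.0456) and SPAC750.01 (difference 1.39, adjusted p = 0.0517) had positive differences, likewise without a call. Between tti2-CKO and tra2-CKO, whose treatments lasted 18 h and 21 h, the response of 15 of 43 members differed (6.11% of all genes), 12 upward and 3 downward in tti2-CKO. The upward ones were the same 6 SPAC1039 genes and klf1, SPAC11D3.03c, SPAC11D3.06, SPAC11D3.18c, sul2 and nhe1. SPAC1039.02 differed by 4.71 on the log2 scale (SE 0.57, adjusted p = 0.000136), and by 4.09 without tra2-CKO DMSO replicate 1. The 3 downward genes were all of the redox and detoxification group: SPAC750.01 (−2.89, adjusted p = 0.00150), hsp3104 (−1.88, adjusted p = 7.08e-05) and SPAC977.14c (−1.87, adjusted p = 4.52e-05). These 3 calls held without any 1 library.

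Genes of the machinery that keeps telomeres and heterochromatin in place were also examined. Of 30 listed telomere, heterochromatin and related factors, all tested, 3 rose with β-estradiol in the tti2-CKO strain and in the tra2-CKO strain, where 5.65% and 7.71% of all genes did. They were bdf2, a bromodomain protein that binds acetylated histones, by 0.77 in tti2-CKO and 1.23 in tra2-CKO on the log2 scale, tpz1, a shelterin subunit, by 0.63 in tti2-CKO and 0.77 in tra2-CKO, and chp2, a chromodomain protein of heterochromatin, by 0.63 in tti2-CKO and 0.72 in tra2-CKO. In spt20Δ bdf2 rose by 0.74 against WT.

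For scale, the 49 genes near the ends of chromosome II were counted the same way. With β-estradiol, 8 of 19 tested were called higher and 4 lower in tti2-CKO (all genes 5.65% and 7.13%). In tra2-CKO, 8 of 18 were called higher and 2 lower (all genes 7.71% and 2.37%). In spt20Δ 3 of 19 were called higher and 3 lower than in WT (all genes 7.09% and 5.73%), and in tra1-Sptra2 2 of 18 higher and 8 lower (all genes 1.1% and 2.61%). In tra2-CKO the ends of chromosome II thus had more genes higher than lower, as did all genes, and those of chromosome I more lower than higher. This difference was not tested.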

How the data were processed

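RNA-seq counts per gene were deposited for 36 libraries, as a table of the series. Per the submitters' processing notes and the study's methods, the authors demultiplexed reads with bcl2fastq, aligned them with HISAT2 2.1.0, counted them per gene with HTSeq 0.9.1 in union mode with strand and an alignment quality minimum of 10, and compared groups with DESeq2 1.18.1. The genome build is not given in the sources used here. From the deposited counts, CPM were computed here (counts over the library total after TMM scaling across all 36 libraries). Counts were tested with edgeR 4.0.16 in R 4.3.3 (TMM, filterByExpr with a minimum count of 10, quasi-likelihood test, Benjamini-Hochberg adjustment over all genes tested), after a trial on simulated counts. Only the groups compared entered a fit, and both strains for interactions. Alternatives were DESeq2 1.42.0, RLE scaling, no filter on low counts, a replicate block, 1 fit of all 36 libraries, members under 10% shared windows, and leaving out each library. An exact permutation test of 3 cultures against 3 cannot go below 0.1, so none is given.

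Replicate numbers were taken to pair cultures where every pair's deviations correlated above 0.1. This held for creER (r 0.667, 0.538 and 0.335), tra2-CKO (0.209, 0.272 and 0.181), tra1-Sctra1 and WT (0.146, 0.116 and 0.161), spt20Δ and WT (0.124, 0.143 and 0.364), and tra2-CKO and creER with DMSO (0.731, 0.501 and 0.429). In spt20Δ, replicate 1 passed that limit but correlated more with another WT replicate than with WT replicate 1, so calls there with the block alone are uncertain. The pairing rests on these data, since no label says what a number marks. Genes named by rule were the 4 called members above 5 CPM that rose most and the 4 that fell most against DMSO or WT in each of 8 comparisons, members called in at least 4, SPAC977.12, tlh1, the extremes of level per length, members at 0 throughout 1 condition only, and the targeted genes. The other called members were named after their values were seen. The members, role groups and factor list were chosen with earlier results of these data known.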

Additional observations from a re-analysis of the deposited data

Results flagged for a closer look

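The results below were picked out because 2 strains responded unequally to β-estradiol in an interaction term. Groups of 3 cultures are too small for a check of stray samples. All values are differences of log2 fold changes, tti2-CKO minus the other strain, with adjusted p at or under 0.01 in edgeR.

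Relative to creER, the response in tti2-CKO was higher by 3.02 for SPAC1039.01 (amino acid permease), 3.30 for SPAC1039.02 (phosphatase), 2.24 for SPAC1039.06 (D-serine ammonia-lyase), 2.72 for SPAC1039.07c (transaminase), 2.02 for SPAC1039.08 (serine acetyltransferase) and 3.40 for mmf2. It was also higher by 4.28 for SPAC11D3.03c (uncharacterised) and 1.77 for SPAC11D3.18c (carboxylic acid transporter). It differed by −1.38 for SPAC977.12 (L-asparaginase) and −1.17 for SPAC977.14c (aldo/keto reductase).

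Relative to tra2-CKO, the SPAC1039 differences were 3.81 for SPAC1039.01, 4.71 for SPAC1039.02, 0.78 for klf1 (transcription factor), 2.78 for SPAC1039.06, 2.87 for SPAC1039.07c, 1.96 for SPAC1039.08 and 4.08 for mmf2. Without tra2-CKO DMSO replicate 1, those of SPAC1039.01 and mmf2 were 3.084 and 2.84. The klf1 difference (SPAC1039.05c) was lost without tti2-CKO DMSO replicate 2 or 3 or tti2-CKO β-estradiol replicate 1 or 2 or tra2-CKO DMSO replicate 3 or tra2-CKO β-estradiol replicate 1, 2 or 3, or in 1 fit of all 36 libraries. On the left end they were 4.27 for SPAC11D3.03c (3.23 without tra2-CKO DMSO replicate 1), 1.20 for SPAC11D3.06 (MatE transporter) and 1.92 for SPAC11D3.18c. The transporter genes sul2 and nhe1 differed by 1.44 and 0.94; the first was lost without tti2-CKO DMSO replicate 1, 2 or 3 or tti2-CKO β-estradiol replicate 1 or 2 or tra2-CKO DMSO replicate 1, 2 or 3 or tra2-CKO β-estradiol replicate 1, 2 or 3, and the other without tti2-CKO β-estradiol replicate 2 or tra2-CKO DMSO replicate 2 or tra2-CKO β-estradiol replicate 1 or 3. The 3 negative differences were −1.88 for hsp3104, −2.89 for SPAC750.01 and −1.87 for SPAC977.14c. Treatments lasted 18 h in tti2-CKO and 21 h in the other strains, so strain and duration cannot be told apart.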

How the results depend on the processing

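No called value changed sign under any alternative run. Of 89 calls of a member in a comparison, 89 were kept by DESeq2, by RLE scaling and without the filter on low counts, 85 in 1 fit of all 36 libraries, 83 with the replicate block, and 50 in every fit that left out 1 library. With 3 cultures a group, the other 39 rest in part on a single library.

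Shares of all genes called under the alternatives are not given here, so the counts below cannot be set against them. The count of called members moved by over 1.5 times as follows. In creER it was 2, but 5 by DESeq2, 8 with the replicate block, 5 in 1 fit of all libraries, and 0 to 2 on leaving out a library. In tra1Δ it was 6 (3 to 8). In tra1-Sctra1 it was 1, but 3 by DESeq2, 0 with the replicate block, 0 among members under 10% shared windows, and 0 to 2 on leaving out a library. In spt20Δ it was 11, but 17 with the replicate block (7 to 13). In spt20-HITΔ against WT it was 1, but 6 by DESeq2, 8 with the replicate block, 8 in 1 fit, 0 under 10% shared windows (0 to 1), and against spt20Δ 2, but 10, 11 with the block and 10 (0 to 6). For tti2-CKO against creER with DMSO it was 0, but 1 by DESeq2 and 1 in 1 fit (0 to 9). The interaction of tra2-CKO with creER gave 0, but 5, 4 with the block and 2 (0 to 1), and that of tti2-CKO with creER 10 (5 to 11). Other counts stayed within 1.5 times on leaving out a library: tti2-CKO 19 (13 to 19; 16 with the replicate block), tra2-CKO 12 (9 to 16; 12 with the block), tra1-Sptra2 10 (7 to 15). The median member moved in tti2-CKO to between −0.17 and 0.15, in tra2-CKO to between −0.29 and −0.20, and in tra1Δ to between −0.19 and −0.14, with −0.17 under 10% shared windows. The causes were not tested. The self-similar outer genes limit the depth: 25 members were not tested in any comparison, most of them with shared windows.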
